A study of Mus musculus with 15 samples.

Results

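The genes described here make, break down, bind or answer to retinoic acid in the mouse stomach. They were chosen by name, as the 9 gene symbols Aldh1a1, Aldh1a2, Aldh1a3, Cyp26a1, Cyp26b1, Rarb, Crabp1, Crabp2 and Stra6, out of 44788 symbols in the deposited tables. Each of the 9 has a single entry in the tables, and each reached 1 FPKM (fragments mapped to a gene, scaled by its transcript length and by the total mapped) at 1 or more ages, as did 16902 symbols in all.

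Whole stomachs of untreated C57BL/6 mice were sequenced at 15 timepoints, with 1 transcriptome for each. The 7 fetal timepoints ran daily from E12.5 to E18.5, the 5 suckling timepoints were D1, D3 and D5 after birth, W1 and W2, and the 3 weaned timepoints were W3, W6 and W8. No timepoint was replicated, so the timepoints of a group served as its replicates, and the spread within a group includes change with age. The study's methods describe combined stomachs of several embryos at the younger fetal ages and only males after W2. Sex and age therefore cannot be told apart where weaned stomachs are compared with younger ones, which holds for every difference after weaning below.

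Retinoic acid is formed from vitamin A in a pair of oxidation steps. Alcohol dehydrogenases and short-chain dehydrogenases turn retinol into retinal, and the aldehyde dehydrogenases of the Aldh1a family turn retinal into retinoic acid. The Cyp26 enzymes break the acid down, and the Crabp proteins carry it within the cell. It acts through nuclear receptors, the Rar proteins, which pair with Rxr proteins on direct repeats of a short hexamer in DNA. In the embryo, retinoic acid is known for its part in patterning the foregut and other axial organs, and the genes for Rarb and Cyp26a1 are textbook targets of the receptor.

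The promoters of these 2 genes were chosen by name to be shown. Among the members with a promoter window, they alone held the direct repeat to which the receptor pair binds. RefSeq promoter windows (GRCm38.p6, 250 bases before to 50 bases after a start) were found for 7 of the 9 members, 11 windows in all. Aldh1a3 and Crabp2 had no window and were not searched. The motif searched was a hexamer of the form AGGTCA, the form AGTTCA, the form GGGTCA or the form GGTTCA, followed in the same direction by another such hexamer after 5 bases, on either strand. It occurred in 32 of 32851 promoter windows, or 0.0974%, and in the 11 windows of the members it occurred in 1 window of Rarb and 1 of Cyp26a1. Repeats with 1 base between the copies (0.222% of all windows) and with 2 bases (0.268%) were found in no window of a member. The windows follow 5′ to 3′ along the gene, with both copies of the hexamer in capitals.
Rarb promoter, chr14:16575427-16575726, minus strand: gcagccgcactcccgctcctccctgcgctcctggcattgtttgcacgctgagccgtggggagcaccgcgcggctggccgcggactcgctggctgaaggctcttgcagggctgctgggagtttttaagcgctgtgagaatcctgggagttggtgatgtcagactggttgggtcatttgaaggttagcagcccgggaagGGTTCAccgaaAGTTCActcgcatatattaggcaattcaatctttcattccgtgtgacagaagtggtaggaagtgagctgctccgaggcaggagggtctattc
Cyp26a1 promoter, chr19:37697558-37697857, plus strand: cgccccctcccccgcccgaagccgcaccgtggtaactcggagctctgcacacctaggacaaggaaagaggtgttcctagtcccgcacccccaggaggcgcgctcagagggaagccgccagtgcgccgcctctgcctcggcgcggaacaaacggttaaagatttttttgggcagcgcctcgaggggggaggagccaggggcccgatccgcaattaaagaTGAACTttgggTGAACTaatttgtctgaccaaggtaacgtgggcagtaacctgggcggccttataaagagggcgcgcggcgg
In the Rarb window the repeat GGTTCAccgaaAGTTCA lies at positions -53 to -37 from the start. In the Cyp26a1 window it lies at -32 to -16 and reads on the other strand, so that it appears here as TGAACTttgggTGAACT. The Rarb window lies inside the span of the Rarb entry, chr14:16430624-17172900, and not at its 5′ end. Any other start of that entry was not searched. A match of letters is a description of these windows and says nothing of binding in the stomach. Both genes were known targets beforehand, so the share over all windows gives no test of an enrichment among the members.

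Fragments behind the transcriptomes, in units of 1e6, numbered 10.6 (E16.5) to 17.0 (W6) if the deposited confidence bounds are Poisson. The markers of glandular stomach epithelium Cldn18, Tff1, Gkn1, Atp4b and Pgc were present at every timepoint, with summed FPKM of 336 to 5846 in fetal, 9779 to 59407 in suckling and 185253 to 269253 in weaned stomachs. A pair of transcriptomes stood apart. D1 had the highest levels of 3 of 5 liver genes, with albumin (Alb) at 461 FPKM, against 65.4 or less elsewhere, Fgb at 57.4 and Serpina1a at 19.7. The other members of that list, Apoa1 and Ttr, had their maxima at W6 and W3, and the sum of the 5 was 1471 to 2396 in weaned stomachs, against 1041 at D1. At W8 the 4 markers of the squamous epithelium of the forestomach, Krt5, Krt14, Trp63 and Krt13, were at a summed 7.65 FPKM, against 342 at W6 and 860 at W3. The 10 most abundant genes took 11.2% to 53.2% of all FPKM, the most at W6. The median gene was lower by 0.22 (log2) in suckling than in fetal stomachs and by 0.42 in weaned than in suckling stomachs, and the cause was not tested. Median-ratio scaling, which by design centres each sample on its median gene, brought these medians to 0.01 and -0.00.

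Across the 3 age groups, 8 of the 9 members differed in limma's F test at an adjusted p under 0.05, where 79.3% of all 16902 genes tested did. Under median-ratio scaling 5 members did. Suckling against fetal stomachs, 1 member was higher (17.0% of all genes) and 4 were lower (41.9%). Weaned against suckling stomachs, 1 was higher (4.90%) and 3 were lower (46.7%). Under median-ratio scaling the same 5 members were called in suckling against fetal stomachs, with differences of 1.80 for Aldh1a1, -0.43 for Aldh1a2, -1.56 for Cyp26a1, -1.74 for Rarb and -3.14 for Crabp1. Over the 7 fetal timepoints, 2 members rose with embryonic day (21.6% of 16005 genes) and 6 fell (37.1%), or 5 under median-ratio scaling. These shares of all genes are high, and the counts of members alone do not tell the members from other genes. The shares are those without scaling. Under median-ratio scaling, 4441 of 16790 genes were higher and 4128 lower in suckling against fetal stomachs. For the F test and the fetal slope, the shares under that scaling are not given here.

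**Figure D1:**
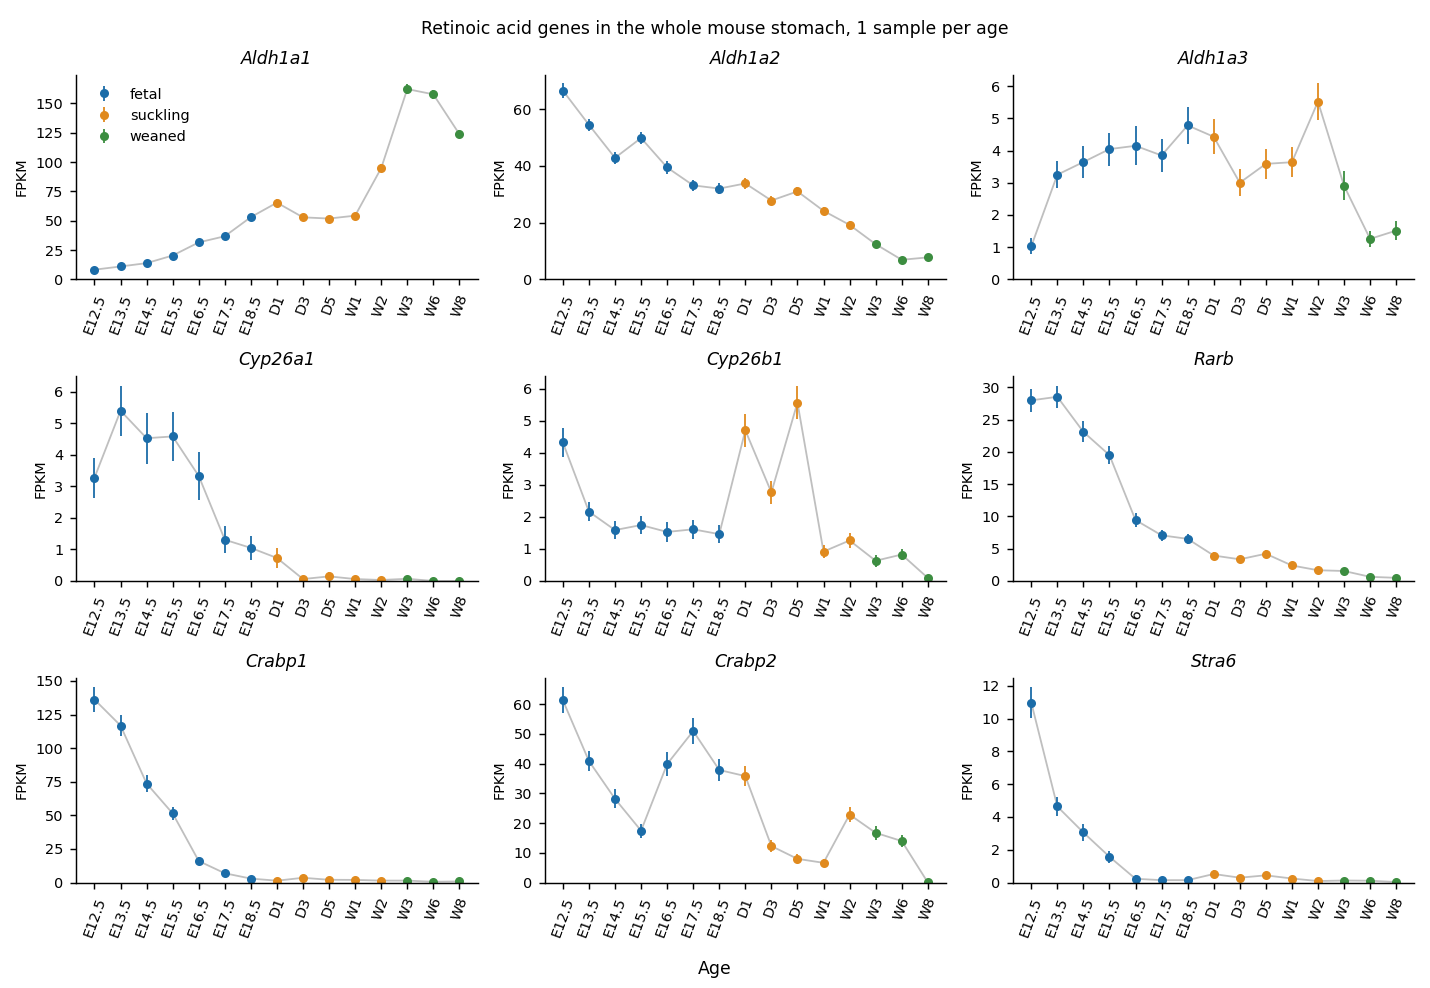
FPKM of each of the 9 genes (vertical axes, linear from 0) in the 15 transcriptomes ordered by age (horizontal axes), with points coloured by group and bars for the deposited confidence bounds, which cover counting error only. Aldh1a1 climbs to 162 FPKM at W3, while Crabp1 drops from 136 FPKM at E12.5 to 2.97 at E18.5.

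Aldh1a1 and Aldh1a2, both of which turn retinal into retinoic acid, moved in opposite directions over the fetal days and between the age groups. Both, however, were lower at D3, D5 and W1 than at D1. Aldh1a1 (chr19:20601982-20643462, GRCm38, plus strand) had its lowest fetal value at E12.5, 8.24 FPKM, a fetal median of 20.3 and a highest fetal value of 53.1 at E18.5. After birth it measured 65.4 at D1, 52.9 at D3, 51.8 at D5, 54.3 at W1 and 94.8 at W2, and in weaned stomachs 162 at W3, 158 at W6 and 124 at W8. Every weaned value lay above every suckling value, whereas E18.5 lay above both D3 and D5. In the fetal series Aldh1a1 rose by 0.43 log2 units a day (SE 0.02, adjusted p = 6.08e-05). The level was 2.90-fold higher in suckling than in fetal stomachs on the FPKM + 1 scale (log2 1.53, SE 0.38, adjusted p = 0.00354) and 2.34-fold higher again after weaning (log2 1.23, SE 0.47, adjusted p = 0.0401). The weaning call was weak, and it was lost when D1, D3, D5, W1, W3, W6 or W8 was left out (adjusted p 0.0575 to 0.117), with a difference of 1.16 to 1.35 in those fits. With median-ratio scaling it was larger, at 1.82 (adjusted p = 0.0125).

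A close copy of the gene, Aldh1a7, gave another course and was looked up after the values of the members were known. Aldh1a7 was at 15.6 FPKM at E12.5, 156 at E17.5 and 9.58 at W8. It lay above Aldh1a1 from E12.5 to W1 and below it from W2 on. How reads matching both genes were shared out is not given in the sources used here, so the levels of Aldh1a1 are uncertain to that extent.

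Aldh1a2 (chr9:71215789-71296243, plus strand) is the main retinoic acid-forming enzyme of embryonic mesenchyme and mesothelium. Its fetal values ran from 32.0 FPKM at E18.5 through a median of 42.9 to 66.6 at E12.5. The suckling values were 33.8 at D1, 27.8 at D3, 31.0 at D5, 24.2 at W1 and 19.2 at W2, and the weaned values 12.4 at W3, 6.91 at W6 and 7.75 at W8. The weaned values lay below all others, and D1 was the only suckling value within the fetal range. Aldh1a2 fell by 0.16 log2 units a day before birth (SE 0.03, adjusted p = 0.00124). It was lower by 0.70 in suckling than in fetal stomachs (SE 0.20, adjusted p = 0.00813) and by 1.51 in weaned than in suckling stomachs (SE 0.25, adjusted p = 0.000564). All 3 calls held without any single transcriptome and under median-ratio scaling, where the differences were -0.43 and -0.97.

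Markers of cell layers in which Aldh1a2 is known to be active followed mixed courses. The 5 mesothelial markers Wt1, Msln, Upk3b, Upk1b and Lrrn4 summed to 51.1 to 88.8 FPKM in fetal, 30.7 to 116 in suckling and 10.3 to 25.9 in weaned stomachs, with a median of 64.9 in fetal and 71.1 in suckling stomachs, and none of them was at 0. Of these, Wt1 had its maximum at E12.5, at 19.5 FPKM, and Msln its fetal minimum there, at 2.20. The 6 markers of mesenchyme and smooth muscle summed to 1978 to 5793, 3050 to 8411 and 1165 to 4994 in the same groups, with the lowest fetal sum at E12.5, where Aldh1a2 was highest. Barx1, the transcription factor that marks stomach mesenchyme, and Pdgfra, a receptor of fibroblasts, had their maxima at E12.5, at 472 and 74.4 FPKM. The collagen gene Col1a1 and the smooth muscle genes Acta2, Actg2 and Myh11 had their fetal minima there, at 444, 674, 225 and 89.5 FPKM. The suckling medians of Acta2, Actg2 and Myh11, at 2212, 2031 and 501, were above their fetal medians of 1562, 1033 and 302. The part of these cells in the fall of Aldh1a2 was not tested. In whole stomachs, fewer cells of a type and less RNA in each cell cannot be told apart, which holds for every gene below.

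Aldh1a3 (chr7:66390892-66427477, minus strand), the third retinal-oxidizing enzyme, had the lowest FPKM of the family in all 15 transcriptomes. It was at 1.02 FPKM at E12.5, with a fetal median of 3.85 and a fetal maximum of 4.78 at E18.5. The suckling values were 4.43 at D1, 3.00 at D3, 3.59 at D5, 3.64 at W1 and 5.52 at W2, and the weaned values 2.91 at W3, 1.26 at W6 and 1.51 at W8. Suckling and fetal values overlapped widely, and the weaned values were below all suckling ones. Aldh1a3 rose by 0.18 a day before birth (SE 0.06, adjusted p = 0.0249), a slope of 0.07 without E12.5 (adjusted p = 0.0559), and without E18.5 the adjusted p was 0.0565. It was lower by 0.82 after weaning (SE 0.29, adjusted p = 0.0290). That call was lost without D1, W2, W6 or W8 (adjusted p 0.0524 to 0.137), and under median-ratio scaling the difference was -0.43 (adjusted p = 0.252). The call across the 3 groups (adjusted p = 0.0473) was lost on leaving out most single transcriptomes.

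The make-up of the family turned over. Aldh1a2 gave 87.8% of the summed FPKM of the 3 enzymes at E12.5, and Aldh1a1 gave 10.9%. The share of Aldh1a1 was 10.9% to 59.0% in fetal, 60.0% to 79.3% in suckling and 91.4% to 95.1% in weaned stomachs, ranges that did not overlap. The log2 ratio of Aldh1a1 to Aldh1a2 (each FPKM + 1) averaged -1.05 ± 1.29 (SD, n = 7) in fetal, 1.19 ± 0.61 (SD, n = 5) in suckling and 3.92 ± 0.37 (SD, n = 3) in weaned stomachs. Since the ratio is taken within a transcriptome, the scale of the samples has little effect on it. The ratio of Aldh1a3 to Aldh1a2 moved the same way to a lesser degree, from -3.38 ± 0.84 (SD, n = 7) through -2.48 ± 0.50 (SD, n = 5) to -1.80 ± 0.02 (SD, n = 3). The summed FPKM of the 3 enzymes was 60.4 to 89.9, 82.1 to 120 and 133 to 177 in the same order.

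**Figure D2:**
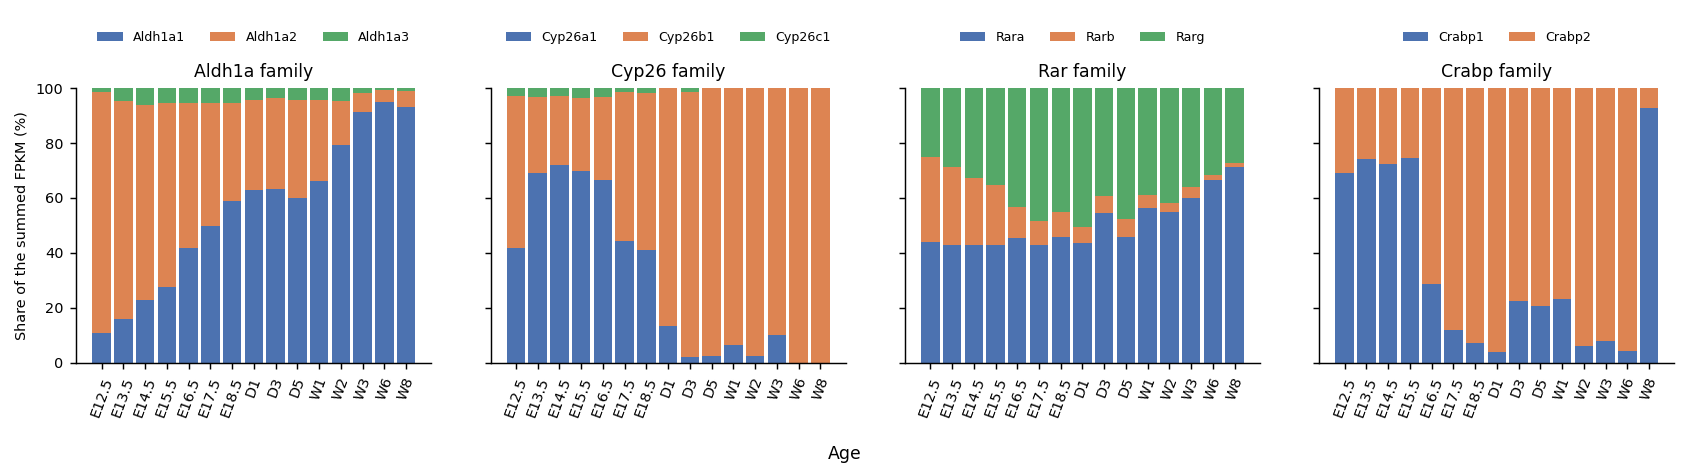
Share of each gene in the summed FPKM of its family (vertical axis, %) at each age (horizontal axis), for the Aldh1a, Cyp26, Rar and Crabp families. Aldh1a1 goes from 10.9% at E12.5 to 95.1% at W6. Cyp26b1 lies above Cyp26a1 at E12.5 and from E17.5 on. Crabp1 makes up most of its family at E12.5 to E15.5 and again at W8.

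The breakdown enzymes were expressed at low levels and differed in timing. Cyp26a1 (chr19:37697808-37701536, plus strand), which oxidizes retinoic acid for removal, was above 1 FPKM at the 7 fetal timepoints and at no later one. Its fetal values ran from 1.05 FPKM at E18.5 through a median of 3.33 to 5.40 at E13.5. After birth it was at 0.730 at D1, 0.0615 at D3, 0.145 at D5, 0.0612 at W1 and 0.0308 at W2, then 0.0694 at W3, and it was listed at 0 at W6 and W8. All fetal values lay above all later ones, and the values from D3 on stand for about 5 fragments or fewer if the bounds are Poisson. Cyp26a1 was lower by 1.77 in suckling than in fetal stomachs (SE 0.27, adjusted p = 0.000232), the 81st lowest of 16902 differences. Over the fetal days it fell by 0.23 a day (SE 0.07, adjusted p = 0.0237), but the decline was not even, and without E13.5, E17.5 or E18.5 the adjusted p was 0.0664 to 0.144.

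Cyp26b1 (chr6:84571414-84593908, minus strand), the second enzyme, did not end at birth. It was at 4.32 FPKM at E12.5, with a fetal median of 1.61 and a fetal minimum of 1.46 at E18.5. Suckling stomachs gave 4.70 at D1, 2.76 at D3, 5.56 at D5, 0.917 at W1 and 1.26 at W2, and weaned stomachs 0.631 at W3, 0.825 at W6 and 0.0966 at W8. D1 and D5 lay above all fetal values and D3 above all but E12.5, while W1 and W2 lay below the whole fetal range. Suckling and fetal stomachs differed by 0.29 (SE 0.30, 95% confidence interval -0.35 to 0.93, adjusted p = 0.415). After weaning Cyp26b1 was lower by 1.28 (SE 0.37, adjusted p = 0.0117), and without W8 the difference was -1.06 (adjusted p = 0.0582). The call across the 3 groups (adjusted p = 0.0164) was likewise lost without W8 (adjusted p = 0.0956) and under median-ratio scaling (adjusted p = 0.0518). A fall of 0.14 a day in the fetal series (SE 0.04, adjusted p = 0.0293) rested on E12.5, without which it was -0.05 (adjusted p = 0.127), and under median-ratio scaling it was -0.11 (adjusted p = 0.0685).

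In the Cyp26 family the share of Cyp26a1 was 41.1% to 72.04% before birth and 13.4% or less from D1 on. Cyp26b1 held 86.6% to 97.6% of the family's FPKM in suckling stomachs, out of a sum of only 0.978 to 5.71 FPKM. The log2 ratio of Cyp26b1 to Cyp26a1 was -0.45 ± 0.67 (SD, n = 7) in fetal, 1.61 ± 0.65 (SD, n = 5) in suckling and 0.54 ± 0.37 (SD, n = 3) in weaned stomachs. At such low levels the pseudocount weighs on this ratio, and with 0.1 in place of 1 the suckling and fetal means lay 4.03 apart in place of 2.06. Cyp26c1, the third enzyme, stayed at 0.263 FPKM or less and was not tested.

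Rarb (chr14:16430624-17172900, minus strand), a nuclear receptor whose own gene answers to retinoic acid, fell before birth and was lower still after it. It was at 28.0 FPKM at E12.5 and 28.5 at E13.5, its fetal median was 19.5, and its fetal minimum was 6.53 at E18.5. The suckling values were 3.94 at D1, 3.36 at D3, 4.22 at D5, 2.40 at W1 and 1.66 at W2, and the weaned values 1.55 at W3, 0.643 at W6 and 0.489 at W8. The 3 groups did not overlap. Rarb fell by 0.39 a day in the fetal series (SE 0.04, adjusted p = 0.000436). It was lower in suckling than in fetal stomachs (log2 -2.002, SE 0.36, adjusted p = 0.000631), the 47th lowest of all differences. From suckling to weaned stomachs the difference was -1.12 (SE 0.46, 95% confidence interval -2.09 to -0.15), with an adjusted p of 0.0518. With pseudocounts of 0.1 and 0.5 that adjusted p was 0.0145 and 0.0282. On leaving out single samples it was 0.0328 to 0.154, with a difference of -1.35 to -0.97. Over all the other settings it was 0.00387 to 0.320, with a difference of -1.77 to -0.62. Exons of Rarb overlap those of Top2b on the opposite strand, which reached 46.8 FPKM, and without knowing whether counting used strand, reads of the pair cannot be told apart.

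The other receptors of the family are Rara and Rarg. Rarb gave 8.64% to 31.1% of their summed FPKM in fetal, 3.49% to 6.68% in suckling and 1.41% to 4.08% in weaned stomachs. Rara was lower by 0.38 (SE 0.08) in suckling than in fetal stomachs and Rarg differed by -0.33 (SE 0.17, adjusted p = 0.101), against -2.002 for Rarb, and under median-ratio scaling the call of Rara was lost (-0.11, adjusted p = 0.204). After weaning, Rarg was lower by 1.10 (SE 0.21, adjusted p = 0.00108), beside the -1.12 of Rarb, which did not pass. Under median-ratio scaling these were -0.55 for Rarg (adjusted p = 0.0469) and -0.84 for Rarb (adjusted p = 0.129). Rara was lower by 0.32 (SE 0.10, adjusted p = 0.0189), which turned to 0.26 higher under median-ratio scaling (adjusted p = 0.0356). The differences between these receptors were not tested.

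**Figure D3:**
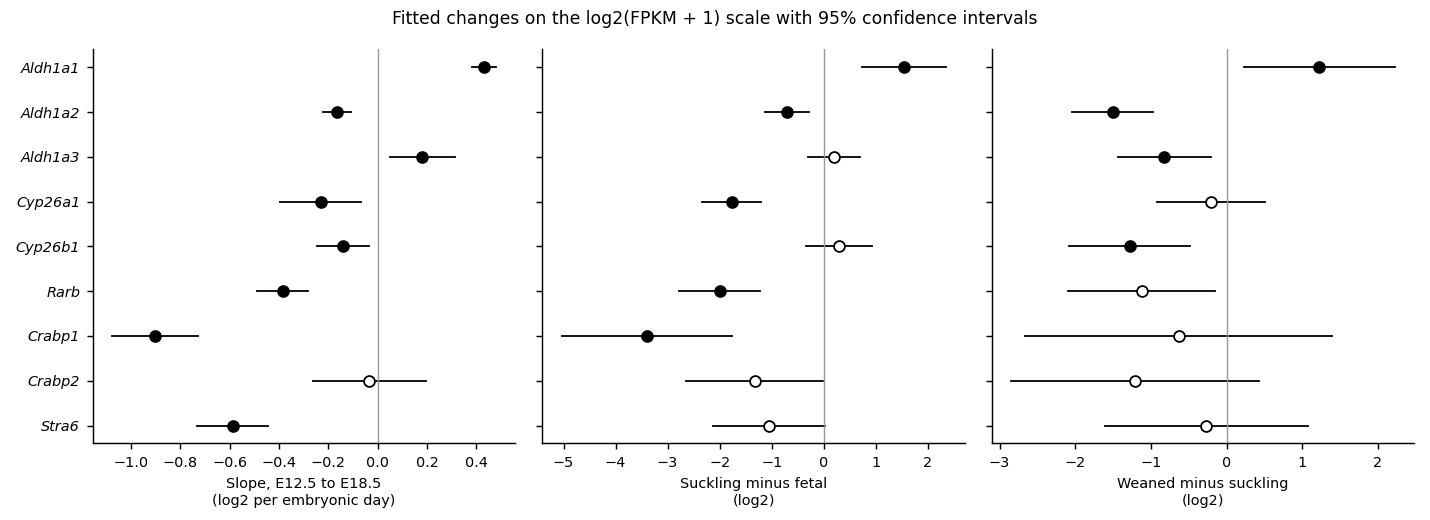
Fitted slope per embryonic day over the 7 fetal transcriptomes and fitted differences between the age groups for each gene (horizontal axes, log2(FPKM + 1) scale), with 95% confidence intervals as lines. Filled points have an adjusted p under 0.05 (limma, Benjamini-Hochberg over all genes). Crabp1 has the lowest slope, -0.90, and the lowest suckling difference, -3.40.

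The binding proteins followed 2 unlike courses. Crabp1 (chr9:54764748-54773110, plus strand), which binds retinoic acid in the cytoplasm, had the steepest decline of the members. It was at 136 FPKM at E12.5 and 117 at E13.5, its fetal median was 51.4, and it had dropped to 2.97 by E18.5. Suckling stomachs gave 1.40 at D1, 3.57 at D3, 2.07 at D5, 1.99 at W1 and 1.48 at W2, and weaned stomachs 1.46 at W3, 0.603 at W6 and 0.858 at W8. Only D3 reached into the fetal range, above E18.5. Crabp1 fell by 0.90 log2 units a day (SE 0.07, adjusted p = 0.000148), the fifth lowest of 16005 slopes. The suckling level was lower by 3.40 (SE 0.76, adjusted p = 0.00209), the 4th lowest of 16902 differences, and both calls held without any single transcriptome. Most of the decline was over before birth, and the difference of weaned from suckling stomachs was -0.63 (SE 0.95, 95% confidence interval -2.67 to 1.40, adjusted p = 0.588).

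The 4 enteric neural markers Ret, Sox10, Elavl4 and Tubb3 had a summed FPKM of 48.7 to 120.4 in fetal, 30.8 to 52.1 in suckling and 9.07 to 15.99 in weaned stomachs. None of the 4 was at 0 in any transcriptome. The sum of the 4 was 120.4 at E14.5 and 55.6 at E18.5. Sox10, a factor of neural crest and glia, was at 23.1 FPKM at E13.5, 8.36 at E17.5 and 10.6 at E18.5. Crabp1 was at 117, 6.92 and 2.97 at the same timepoints. The part of these cells in the fall of Crabp1 was not tested.

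Crabp2 (chr3:87948693-87953372, plus strand), which hands retinoic acid to the receptors, went down, up and down again. Before birth it went from 61.3 FPKM at E12.5 to 17.46 at E15.5 and back to 51.0 at E17.5, with a fetal median of 39.9. It then measured 35.8 at D1, 12.3 at D3, 7.98 at D5, 6.64 at W1 and 22.9 at W2. The weaned values were 16.7 at W3, 14.0 at W6 and 0.0662 at W8, the last with deposited bounds of 0 and 0.199. The fetal and suckling ranges overlapped at D1 and W2, and W8 lay far below every other value. The fetal slope was -0.03 (SE 0.10, adjusted p = 0.785) and turned to 0.09 without E12.5. In the F test Crabp2 differed across the 3 groups (adjusted p = 0.0131), a call lost under median-ratio scaling (adjusted p = 0.09997). Suckling and fetal stomachs differed by -1.33 (SE 0.62, adjusted p = 0.0757), and without D1 by -1.65 (adjusted p = 0.0410). Without W8 the same difference had a smaller spread and an adjusted p of 0.00977.

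The weaned value of Crabp2 rested on 1 transcriptome. With all samples, weaned and suckling stomachs differed by -1.21 (SE 0.77, adjusted p = 0.194), and without W8 by 0.10 (adjusted p = 0.889). At W8 the squamous markers were also at their lowest, with Krt5, a basal keratin, at 1.26 FPKM, Krt13, a keratin of the upper layers, at 5.96 and Trp63, the basal transcription factor, at 0.0511. These 3 were at their highest at E17.5, with Krt5 at 964, Krt13 at 5133 and Trp63 at 22.1, when Crabp2 had its second fetal peak. Krt14, the other basal keratin, was at 79.3 FPKM at E17.5 and highest at D1, at 234, and it was at 0.366 at W8. At E12.5, however, Crabp2 had its maximum and Krt5 was at 6.56 FPKM and Trp63 at 2.89. None of the 4 markers was at 0 in any transcriptome, and their part in the course of Crabp2 was not tested.

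**Figure D4:**
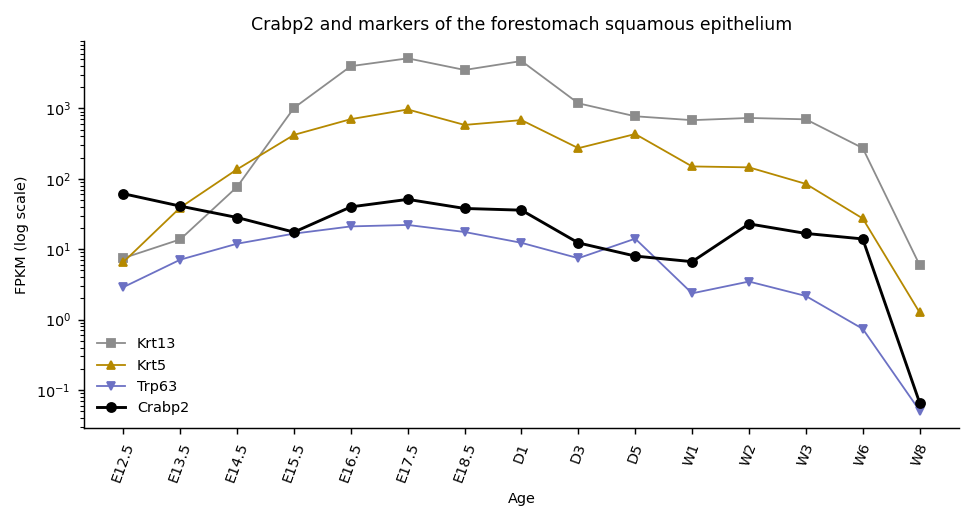
FPKM (vertical axis, log scale) of Crabp2 and of 3 markers of forestomach squamous epithelium by age (horizontal axis). All 4 are lowest at W8, where Crabp2 is at 0.0662 FPKM, whereas at E12.5 Crabp2 is highest, at 61.3, and the markers are low.

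As a share of the summed FPKM of the pair, Crabp1 held 68.9% to 74.7% from E12.5 to E15.5 and 7.26% at E18.5. In suckling stomachs it held 3.76% to 23.0%, and at W8, where both genes were under 1 FPKM, 92.8%. The log2 ratio of Crabp2 to Crabp1 averaged 0.25 ± 2.12 (SD, n = 7) in fetal, 2.33 ± 1.19 (SD, n = 5) in suckling and 1.76 ± 2.22 (SD, n = 3) in weaned stomachs. These means lay about as far apart as the values within a group.

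Stra6 (chr9:58063749-58154004, plus strand), the cell-surface receptor that takes up retinol from its carrier in blood, was an early gene. It was at 10.98 FPKM at E12.5, 4.64 at E13.5, 3.05 at E14.5 and 1.57 at E15.5, and then at 0.147 to 0.232 from E16.5 to E18.5. Suckling stomachs gave 0.523 at D1, 0.298 at D3, 0.441 at D5, 0.247 at W1 and 0.0933 at W2, and weaned stomachs 0.126 at W3, 0.114 at W6 and 0.0342 at W8. No value after E15.5 reached 1 FPKM, and the fetal and suckling ranges overlapped through the late fetal days. Stra6 fell by 0.59 a day (SE 0.06, adjusted p = 0.000305), the 14th lowest of 16005 slopes, and the call held without any single transcriptome. It was the only member not called across the 3 groups (adjusted p = 0.0698). The difference of suckling from fetal stomachs was -1.06 (SE 0.50, adjusted p = 0.0816), and it passed the threshold when E16.5, E17.5 or E18.5 was left out (adjusted p 0.0358 to 0.0441). The border of the groups at birth thus ran behind the decline of this gene. With the study's own RNA phases, which place E18.5 with the suckling ages, the difference was -1.30 (adjusted p = 0.0206).

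Other genes of the retinoid pathway were counted in 6 lists with 50 genes in all, of which 41 reached 1 FPKM. From here on, a difference after birth is the suckling mean minus the fetal mean, and it can include change that took place before birth. Across the 3 age groups 35 of the 41 were called, against the 79.3% of all genes given above. In suckling against fetal stomachs 15 were higher and 15 lower, where 17.0% and 41.9% of all genes were, with a median difference of -0.06, against -0.22 over all genes. Under median-ratio scaling 9 were lower, where 4128 of 16790 genes were. In weaned against suckling stomachs 3 were higher and 20 lower, where 4.90% and 46.7% of all genes were, with a median of -0.43, against -0.42. Under median-ratio scaling these counts after weaning were 6 and 7, where 3606 and 2648 of 16790 genes were higher and lower.

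Carrier and storage genes were counted over a list that does not hold the whole family. All 6 tested were higher in suckling than in fetal stomachs, where 17.0% of all genes were. The same 6 were higher under median-ratio scaling, where 4441 of 16790 genes were. They include Ttr, which is also on the list of liver genes above. At E18.5 Ttr and Rbp2 lay within their suckling ranges, at 95.8 and 95.6 FPKM, while Rbp4, Rbp7, Bco2 and Dgat1 lay below theirs. Rbp2, which binds retinol in absorptive epithelium, went from 1.52 FPKM at E12.5 to 95.6 at E18.5 and 219 at W6, with a slope of 1.10 a day (SE 0.13, adjusted p = 0.000502). Rbp7 and the carotenoid-cleaving enzyme Bco2 were higher by 2.31 (SE 0.45) and 2.01 (SE 0.37) after birth. Rbp4, the retinol carrier of blood, was called as well, at 0.96 (SE 0.34, adjusted p = 0.0265), with its maximum of 53.5 FPKM at D1, the transcriptome with the most albumin RNA, against 15.51 or less elsewhere. Lrat, which esterifies retinol for storage, was at 0.151 FPKM or less throughout, whereas Dgat1, which can also form retinyl esters, was at 12.3 to 30.9.

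Enzymes of retinol oxidation and retinal reduction went both ways. Of 14 tested, 6 were higher and 3 lower after birth, where 17.0% and 41.9% of all genes were. After weaning 2 were higher and 3 lower, where 4.90% and 46.7% of all genes were. Under median-ratio scaling these counts after weaning were 4 and 1, where 3606 and 2648 of 16790 genes were. Adh7, the stomach alcohol dehydrogenase that oxidizes retinol, went from 0.130 FPKM at E12.5 to 110 at W3. It was higher by 3.23 after birth (SE 0.37, adjusted p = 8.54e-05) and by a further 2.26 after weaning (SE 0.46, adjusted p = 0.00156). Rdh7 did the same from a fetal maximum of 0.733 FPKM to 39.0 at W8, with gains of 2.44 (SE 0.20) and 2.36 (SE 0.25). Adh1 rose earlier, by 0.74 a day before birth (SE 0.02, adjusted p = 3.30e-05). Rdh10, which is needed for embryonic retinoic acid, fell by 0.23 a day (SE 0.03, adjusted p = 0.000574), from 26.9 FPKM at E12.5 to 12.1 at E18.5. Rdh12 had its maximum of 54.4 FPKM at E17.5, with 1.44 at E12.5 and 0.846 at W8. Dhrs3, which returns retinal to retinol, was at 34.8 to 78.8 FPKM in all 15 transcriptomes.

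The counts of receptors and co-regulators depended on the scale. Of 5 further receptor genes, 2 were lower after birth and 4 after weaning, where 41.9% and 46.7% of all genes were. Under median-ratio scaling, with 4 of them tested, none was called after birth, where 4441 of 16790 genes were higher and 4128 lower. After weaning 1 was higher and 1 lower, where 3606 and 2648 of all genes were. Of 6 co-regulators, 5 were lower after birth and 6 after weaning, where 41.9% and 46.7% of all genes were. Their median differences were -0.41 and -0.47, against -0.22 and -0.42 over all genes. Under median-ratio scaling 2 co-regulators were lower after birth, where 4128 of 16790 genes were. None was called after weaning (median -0.01), where 3606 of all genes were higher and 2648 lower. Of 10 tested genes known to answer to retinoic acid, 3 were higher and 5 lower after birth, where 17.0% and 41.9% of all genes were. After weaning 7 were lower and none higher, where 46.7% and 4.90% of all genes were. Under median-ratio scaling 5 were lower and none higher after weaning, where 2648 and 3606 of 16790 genes were. Hoxa5 and Hoxb5, homeobox genes of the foregut mesenchyme, went from 59.1 to 3.17 FPKM and from 26.7 to 1.83 FPKM between E12.5 and W8. Meis1 and Meis2, partners of Hox proteins, fell by 0.22 (SE 0.02) and 0.33 (SE 0.03) a day before birth. In suckling stomachs they were lower than in fetal ones by 1.04 (SE 0.24) and 1.23 (SE 0.30). Tgm2, a transglutaminase, and Rarres2, the secreted protein chemerin, ran against them before birth, with slopes of 0.21 (SE 0.03) and 0.55 (SE 0.06) a day. Stra8, the germ-cell gene, was listed at 0 at all 15 timepoints.

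**Figure D5:**
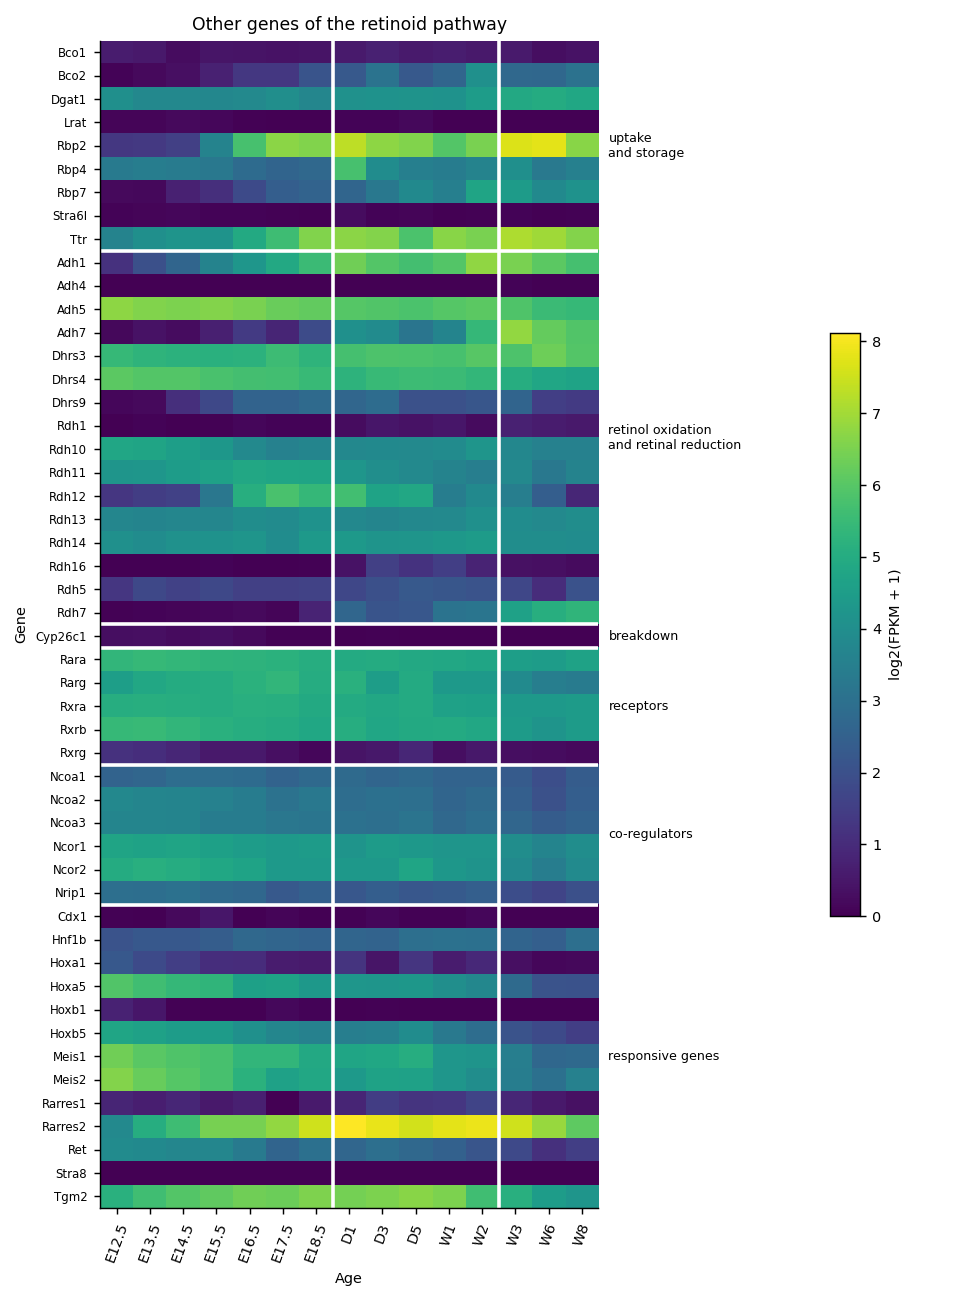
Levels of 50 further genes of the retinoid pathway (rows, in 6 lists) at 15 ages (columns), as log2(FPKM + 1) from 0 (dark) upward, with white lines between lists and age groups. Rbp2, Adh1, Adh7 and Rdh7 brighten toward the later ages, and Hoxa5, Meis1 and Meis2 darken.

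The genes most like each member over the 15 transcriptomes were ranked by Pearson's r of log2(FPKM + 1), as a description in which all points share age, depth and tissue make-up. The closest to Aldh1a1 were Gm10639, Tmbim4 and Prr13 (r 0.990 to 0.989), and to Aldh1a2 they were Tril, Ptk7 and Gpr124 (r 0.993 to 0.991). Rarb lay closest to Kif3c, Hpse2 and Tbpl1 (r 0.992 for each), Crabp1 to Ogdhl, Srgap1 and Sms (r 0.989 to 0.988), and Stra6 to Cecr6, Lrp8os2 and Col2a1 (r 0.983 to 0.978). For Cyp26a1 the 3 genes were Trpm5, Magel2 and Cldn6 (r 0.9753 to 0.972). The less regular members had less similar genes, with r of 0.909 to 0.883 for Aldh1a3 (Sla, Lst1 and Plscr4), 0.902 to 0.892 for Crabp2 (Polb, Dynll1 and Tax1bp3) and 0.891 to 0.868 for Cyp26b1 (Rhpn1, Fam89a and Klhl35). With 16902 genes to choose from and 15 points along 1 time axis, high values are common.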

How the data were processed

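The authors deposited 1 table of FPKM values per timepoint, with confidence bounds for each gene entry. The labels name FastQC, Bowtie 0.12.2 and GRCm38.p2. The study's methods name HISAT2, StringTie and GENCODE, while the tables have the layout of Cufflinks, and they give liver as the RNA source where the labels give stomach. Where a symbol had several entries, their FPKM were added. Symbols that reached 1 FPKM in any sample were tested on log2(FPKM + 1) with limma 3.58.1 in R 4.3.3, in 1 fit over the 3 age groups and in a linear fit over the fetal days, with Benjamini-Hochberg adjustment and a threshold of 0.05. Fold changes on this scale understate those of low genes. Named were all members, genes of the pathway lists and the 3 genes most similar to each member. Members and lists were chosen with earlier results of these data known, and some list genes are not reported here. The tests were tried on simulated data. Confidence bounds cover counting error only, and the tables give no read depth. Pseudocounts, filters, scalings, group borders and single samples were varied.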

Additional observations from a re-analysis of the deposited data

Results flagged for a closer look

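Of 18 groups of values (9 genes in the fetal and in the suckling group), 3 held a sample flagged by Dixon's criterion on log2(FPKM + 1). The gap of such a sample to its nearest neighbour takes an unusually large part of the range. Chance alone exceeds the criterion in about 1 of 20 groups of independent values from 1 distribution. The groups here are ordered ages that include change with age, so that rate need not hold for them. Aldh1a3 was at 1.02 FPKM at E12.5, against 3.25 to 4.78 at the other fetal timepoints. Cyp26b1 was at 4.32 FPKM at E12.5, against 1.46 to 2.16 at the others. Cyp26a1 was at 0.730 FPKM at D1, against 0.0308 to 0.145 at the other suckling timepoints. Each of these values stands at an end of its group's age range, and D1 is the transcriptome with the highest levels of the liver genes Alb, Fgb and Serpina1a, though not of Apoa1 and Ttr, and their part in the value was not tested.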

How the results depend on the processing

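Each result was computed again with other pseudocounts, filters, scalings, group borders and thresholds, and without each sample. No paired analysis was possible because the replicate numbers only name different ages. The call of members across the 3 groups, 8 in the report, was 5 with median-ratio scaling, 5 at an adjusted p under 0.01 and 5 with a one-way test on untransformed FPKM. Of all genes, 13407 were called in the report and 11472 to 14453 with settings other than leaving out single samples. The members higher after weaning, 1 in the report, numbered 0 without a filter, with quantile normalization, at an adjusted p under 0.01 and without D1 and W8, and 0 to 1 on leaving out single samples. The members lower after weaning, 3 in the report, numbered 1 with quantile normalization, at the stricter threshold and without D1 and W8, and 1 to 4 on leaving out single samples, with the 1 coming from leaving out W8. Members with a rising fetal slope, 2 in the report, numbered 1 without a filter and at the stricter threshold, and 1 to 2 on leaving out single samples. Of all genes, 3452 rose in the report, and 2470 to 4349 with settings other than leaving out single samples. Leaving out D1 and W8 together was chosen after seeing the data.

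For the wider pathway, median-ratio scaling gave 9 genes lower after birth in place of 15, and 6 higher and 7 lower after weaning in place of 3 and 20. Those lower after weaning numbered 5 with quantile normalization, 12 at the stricter threshold, and 12 (without W6) to 21 on leaving out single samples. Of all genes, 1879, 4877 and 4637 were lower with quantile normalization, at the stricter threshold and without W6. Of all genes called after weaning, 9.51% were higher, against 57.7% with median-ratio scaling and 58.1% with quantile normalization. After birth this share was 28.8%, 51.8% and 37.6%, and for the fetal slope 36.7%, 49.1% and 36.1%.

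The direction of Crabp2 was the least stable. Its fetal slope was 0.000382 with median-ratio scaling and -0.0849 to 0.0889 on leaving out single samples, with the highest value without E12.5. Its weaned difference was 0.42 without D1 and W8 and -1.92 to 0.10 on leaving out single samples, and its log2 ratio to Crabp1 after weaning was 1.11 without D1 and W8 and -1.31 to 0.71 on leaving out single samples, with the positive values from leaving out W8. Stra6 after weaning was 0.0204 with quantile normalization. The log2 ratio of Cyp26b1 to Cyp26a1 rose by 4.03 after birth with a pseudocount of 0.1. The cause of these changes was not tested.

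The lowest values, such as Crabp2 at W8 and Cyp26a1 at W2, rest on about 1 fragment, and with 1 transcriptome per age no difference between single ages can be tested.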
